A study of Rattus norvegicus with 8 samples.

Results

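The genes described here are 8 markers that are widely used to sort macrophages into a pro-inflammatory and a repair state: Arg1, Nos2, Cd86, Mrc1, Cd163, Msr1, Il10 and Folr2. They were looked up by symbol among the 32623 genes of the count files, and 7 of the 8 had a row. Nos2 is not analysed here. Their raw UMIs (barcodes by which each captured RNA molecule is counted a single time) were read in cells with at least 3 UMIs of Tyrobp, a signalling adaptor of myeloid and NK cells, in all 8 libraries. After quality control 40406 such Tyrobp-positive cells remained of 55455 kept cells and 68658 deposited barcodes. The cells came from a 10-mm piece of spinal cord of female Wistar rats aged 8 weeks, 7 days after surgery. Mild, moderate and severe injury were made by letting a 10 g weight fall onto the exposed cord from heights of 12.5, 25 and 50 mm, and sham rats had a laminectomy without a weight drop, so that the vertebrae were opened in all 4 groups. Each group had 2 libraries, called replicates 1 and 2. With 8 cords for 8 libraries, each library is read as 1 cord, and the p-values measure the spread between 2 cords per group.

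Macrophages and microglia take up debris after a spinal cord injury and send signals that either sustain inflammation or favour repair. Arg1 (arginase 1) and Nos2 (inducible nitric oxide synthase) compete for arginine, the former making ornithine and the latter nitric oxide. Cd86 is a costimulatory ligand for T cells and is commonly read as a pro-inflammatory marker, whereas Mrc1 (mannose receptor), Cd163 (receptor for haemoglobin bound to haptoglobin), Msr1 (class A scavenger receptor), Il10 (an anti-inflammatory cytokine) and Folr2 (folate receptor beta) are commonly read as repair or resident-macrophage markers. Promoter sequences from RefSeq, of the rat build GRCr8, were matched by symbol for 4 of the 8 genes, Cd86, Mrc1, Cd163 and Folr2. The 3 that were found together in the same cells more often than their shares give are shown, each with 250 bases before and 50 after the start of the gene. The Mrc1 window is chr17:82157475-82157774 on the plus strand, that of Cd163 is chr4:158770524-158770823 on the plus strand and that of Folr2 is chr1:165630333-165630632 on the minus strand. Capitals mark GAGGAA, the core letters of sites of the myeloid factor PU.1, and TGCTGA, a sequence bound by MAF factors, searched on both strands and without overlap between them in these windows.
Mrc1: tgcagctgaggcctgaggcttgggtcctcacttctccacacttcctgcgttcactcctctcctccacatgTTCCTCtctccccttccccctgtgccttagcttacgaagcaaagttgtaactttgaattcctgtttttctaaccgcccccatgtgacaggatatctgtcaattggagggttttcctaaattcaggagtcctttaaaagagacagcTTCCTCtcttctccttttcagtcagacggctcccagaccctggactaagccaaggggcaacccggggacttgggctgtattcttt
Cd163: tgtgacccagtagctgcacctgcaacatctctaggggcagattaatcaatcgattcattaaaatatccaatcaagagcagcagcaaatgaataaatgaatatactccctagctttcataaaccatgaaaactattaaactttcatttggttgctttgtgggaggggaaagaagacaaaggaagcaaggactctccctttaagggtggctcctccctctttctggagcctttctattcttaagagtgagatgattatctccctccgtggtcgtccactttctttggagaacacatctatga
Folr2: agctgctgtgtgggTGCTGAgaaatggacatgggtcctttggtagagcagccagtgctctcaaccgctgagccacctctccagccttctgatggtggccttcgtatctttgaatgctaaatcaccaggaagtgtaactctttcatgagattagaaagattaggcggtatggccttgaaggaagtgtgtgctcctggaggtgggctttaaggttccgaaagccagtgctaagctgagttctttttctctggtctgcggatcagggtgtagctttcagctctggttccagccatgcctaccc
The Mrc1 window held GAGGAA 2 times and the Folr2 window held TGCTGA 1 time, while Cd163 had neither. Of 33469 RefSeq promoter windows, 27.6% held GAGGAA and 18.4% held TGCTGA, so these matches are a description of the letters only.

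Sham replicate 1 stood apart from the other libraries. Of its 5617 Tyrobp-positive cells, 4163 (74.1%) had more than 2% of their UMIs on the neutrophil genes S100a8 and S100a9, against 0.237% to 15.9% in the other 7 libraries. The summed level of the 9 neutrophil genes was 173331 UMIs per 1000000 UMIs of the same cells (CPM) there, and 236 to 3244 CPM elsewhere. Median depth ran from 2755 UMIs per Tyrobp-positive cell in sham replicate 1 to 14738 in severe replicate 2. Libraries shared 5 to 40 cell barcodes per pair, at most 0.452% of the smaller library. For several results against sham the values without sham replicate 1 are therefore given as well, from fits with 1 sham library. What part these cells have in the sham values was not tested.

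Among all Tyrobp-positive cells Folr2 had the highest median level of the listed genes and lay above sham in every injured library. Its level was 61.3 and 157 CPM in the sham replicates. It was 424 and 512 CPM after mild injury, 421 and 495 CPM after moderate injury, and 298 and 369 CPM after severe injury. In CPM all 6 injured libraries lay above both sham libraries, and the severe libraries lay below the mild and moderate ones. The share of all genes that separate in this way was not counted, here or in the comparisons below. Without the cells rich in S100a8 and S100a9 the sham levels were 142 and 158 CPM, and the 6 injured libraries were still above both. The log2 fold change against sham was 1.89 ± 0.43 (SE) for mild, 1.79 ± 0.43 for moderate and 1.81 ± 0.43 for severe injury. The adjusted p-values were 0.0982, 0.169 and 0.115 in edgeR's quasi-likelihood test, which did not reach the threshold of 0.05. In the same test severe against mild injury was at -0.09 ± 0.42 (SE, adjusted p = 0.943). The test scales the libraries by TMM, which the CPM values do not, so the lower severe CPM is not a tested fall. No gene at all was called in the mild or moderate comparison (0% of 14534 tested genes each, with 3507 and 2510 genes at an unadjusted p under 0.05), 98 genes (0.674%) were called for severe against sham, and 72 genes (0.495%) for severe against mild. None of the 7 listed genes was among them. DESeq2 called 13.7%, 7.82%, 11.1% and 6.08% of the genes in these comparisons, and called Folr2 in all 3 comparisons with sham, at adjusted p-values of 0.0025, 0.00639 and 0.00391. Without sham replicate 1, edgeR called Folr2 at log2 fold changes of 1.43, 1.32 and 1.34, with 11.8%, 7.96% and 9% of all genes called. Without sham replicate 2 it called Folr2 at 2.78, 2.67 and 2.69, with 28.3%, 20.1% and 27.7% of all genes called.

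Arg1 was detected in every injured library, and its sham level rested on 1 library. It was at 28.7 CPM in sham replicate 1 and 0.864 CPM in sham replicate 2. The injured libraries held 43.7 and 36.9 CPM (mild), 48.4 and 163 CPM (moderate), and 52.1 and 29.2 CPM (severe). All 6 stood above both sham libraries, but severe replicate 2 lay beside sham replicate 1, and the moderate replicates lay far apart. Without the cells rich in S100a8 and S100a9 sham replicate 1 was at 62.3 CPM, and 1 of the 6 injured libraries was then above both sham libraries. The log2 fold changes of 1.13 ± 1.28, 2.43 ± 1.33 and 1.53 ± 1.29 (SE) for mild, moderate and severe injury had adjusted p-values of 0.608, 0.376 and 0.491. Without sham replicate 1 they were 5.39, 6.69 and 5.79, and all 3 were called (adjusted p = 0.0165, 0.0145 and 0.0132). The difference between mild and severe injury was 0.40 ± 1.26 (adjusted p = 0.907).

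Cd163 was the one listed gene below both sham libraries in all 6 injured libraries. It was at 11.7 and 6.91 CPM in the sham replicates and at 2.72 to 5.13 CPM in the injured ones. The groups did not overlap, at low levels throughout, and the share of all genes with such an order was not counted. Without the cells rich in S100a8 and S100a9 sham replicate 1 was at 27.9 CPM and all 6 injured libraries stayed below both sham libraries, as did 5 of 6 in cells with C1q UMIs. The log2 fold changes were -1.50 ± 0.49, -1.57 ± 0.49 and -1.26 ± 0.49 (SE) for mild, moderate and severe injury, with adjusted p-values of 0.144, 0.218 and 0.203. DESeq2 called the mild and the moderate difference, at adjusted p-values of 0.0421 and 0.047. Without sham replicate 2 the 3 differences were -1.72, -1.80 and -1.50, with sham replicate 1 as the only sham library.

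Cd86 was highest after severe injury, yet within the range that the sham libraries spanned in all other groups. It was at 16.8 and 70.9 CPM in the sham replicates, 42.5 and 55.9 CPM (mild), 45.9 and 55.5 CPM (moderate), and 71.0 and 119 CPM (severe). Both severe libraries lay above all 4 mild and moderate libraries. A list of 5 genes drawn up for dendritic cells held Flt3, Clec9a, Xcr1, Cd74 and RT1-Da. Its summed level was 3851 and 2841 CPM in the severe libraries and 550 to 2250 CPM in the other 6. The sum was not split by gene and does not count dendritic cells, and its part in the Cd86 level was not tested. The log2 fold change of severe against mild injury was 1.36 ± 0.61 (SE, adjusted p = 0.349), and that against sham was 1.34 ± 0.61 (adjusted p = 0.252). Severe against mild injury was called at 1.36 without sham replicate 1 (adjusted p = 0.0423) and at 1.36 without sham replicate 2 (adjusted p = 0.044), where 7.93% and 7.54% of the genes were called. With both sham libraries the log2 fold change of Cd86 against sham was -0.02 ± 0.60 (SE) for mild and -0.05 ± 0.60 for moderate injury. Without sham replicate 2 the log2 fold change of Cd86 against sham was 1.40 (mild) and 2.76 (severe). These values rest on sham replicate 1 alone, where Cd86 was at 38.3 CPM without the cells rich in S100a8 and S100a9. Another set held the 20345 Tyrobp-positive cells with at least 3 UMIs of the complement genes C1qa, C1qb and C1qc, which mark macrophages and microglia. Among them Cd86 was called for severe injury against sham and against mild injury. There it was at 58.2 and 71.6 CPM (sham), 52.7 and 60.7 CPM (mild), 53.8 and 68.1 CPM (moderate), and 121 and 156 CPM (severe). The log2 fold change was 1.50 against sham (adjusted p = 0.0444) and 1.70 against mild injury (adjusted p = 0.0429), while 2.93% and 1.6% of 13651 genes were called. Folr2 was called in the same cells after mild (1.45, adjusted p = 0.0301) and severe injury (1.55, adjusted p = 0.0201), with 3.34% of the genes called after mild injury. After moderate injury 0.769% of the genes and no listed gene were called.

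Neither Mrc1 nor Msr1 passed the test in any of the 4 comparisons with all libraries. Mrc1 was at 39.2 and 23.8 CPM in the sham replicates, 46.4 and 56.8 CPM (mild), 68.3 and 121 CPM (moderate), and 86.7 and 50.4 CPM (severe). The injured libraries all lay above sham, at log2 fold changes of 0.46 ± 0.42, 1.25 ± 0.43 and 1.25 ± 0.43 (SE), with adjusted p-values of 0.534, 0.231 and 0.179. This order depended on the cells rich in S100a8 and S100a9: without them sham replicate 1 was at 94.3 CPM and 1 of 6 injured libraries lay above both sham libraries, and with C1q UMIs it was at 151 CPM and 0 of 6 did. Without sham replicate 1 the severe difference was called at 1.76 (adjusted p = 0.0486). Msr1 was at 155 CPM in sham replicate 1 and 29.4 CPM in sham replicate 2, and every injured library lay between them, from 39.1 to 105 CPM. Its direction turned with the sham library used. Leaving out sham replicate 1 gave log2 fold changes of 0.71, 1.40 and 0.88 for mild, moderate and severe injury. Leaving out sham replicate 2 gave -1.70, -1.01 and -1.53. Each of these fits rested on 1 sham library. With both sham libraries it was -1.09 ± 0.71, -0.39 ± 0.71 and -0.92 ± 0.71.

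Il10 transcripts were rare. They numbered 366 UMIs over all 40406 cells, 222 of them in 104 cells of severe replicate 2, where the level was 3.10 CPM. The other 7 libraries held 3 to 63 UMIs, at 0.136 to 0.855 CPM. Severe replicate 1 was at 0.372 CPM with 8 UMIs, so the severe group rested on 1 library, and the log2 fold change of 3.14 ± 1.18 (SE) against mild injury had an adjusted p of 0.293.

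**Figure D1:**
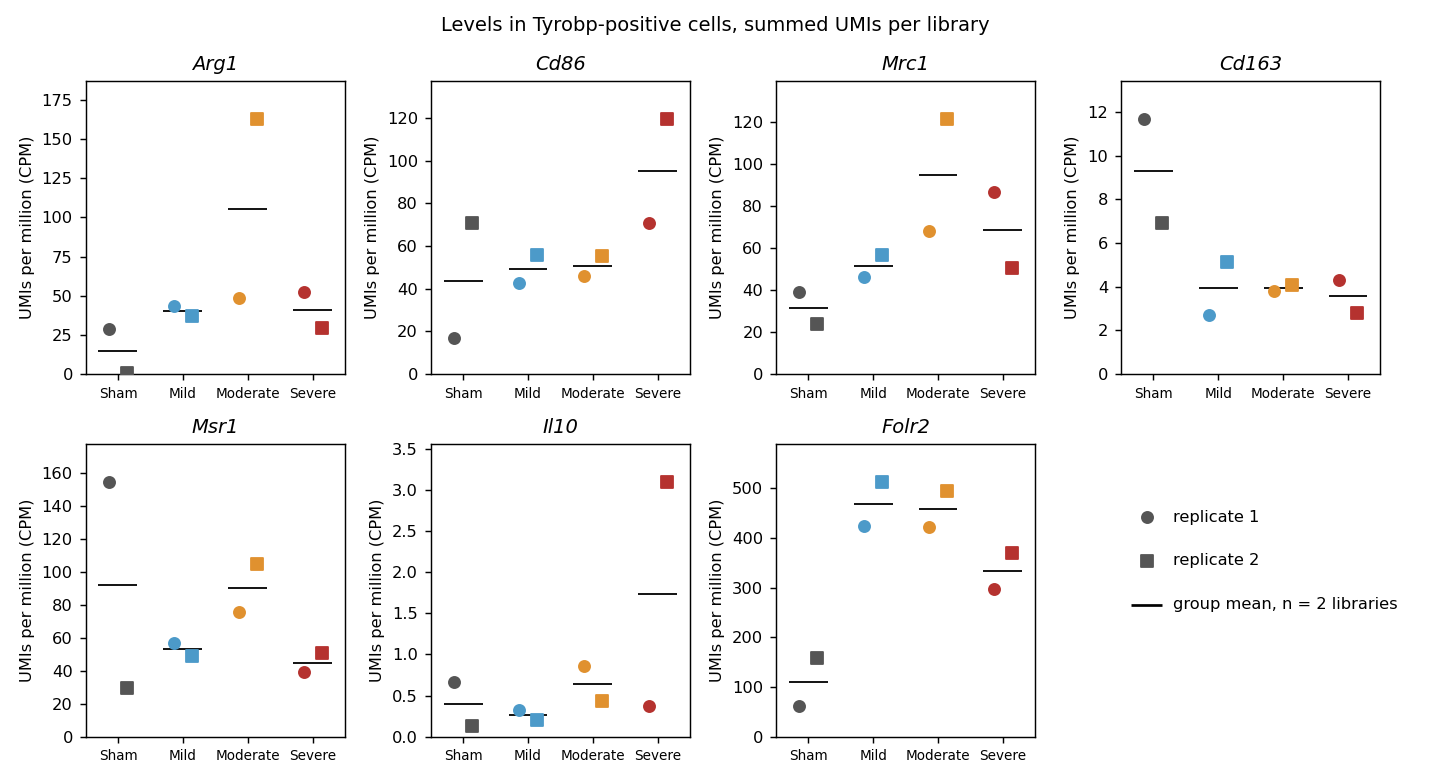
Each panel plots the level of 1 gene in Tyrobp-positive cells, in CPM on a linear axis from 0, with 1 point per library and a line at the mean of the 2 libraries of a group. Folr2 lies above both sham libraries in all 6 injured libraries and Cd163 below them, while the 2 sham points of Arg1, Cd86 and Msr1 lie far apart.

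The order of the levels was taken from 3-prime counts, where 1 UMI is 1 transcript end, so that no division by transcript length was needed. Folr2 was above the next gene, Cd86, in 8 of 8 libraries, by 2.45 ± 0.86 (SD) on the log2 scale, but in sham replicate 1 Msr1 (155 CPM) was above Folr2 (61.3 CPM). Cd86, Msr1 and Mrc1 followed with medians of 55.7, 54.0 and 53.6 CPM and did not separate: Cd86 was above Msr1 in 4 of 8 libraries and Msr1 above Mrc1 in 5 of 8. Mrc1 exceeded Arg1 (median 40.3 CPM) in 7 of 8 libraries, with a log2 ratio of 0.94 ± 1.60 (SD). Cd163 (4.20 CPM) and Il10 (0.404 CPM) came last.

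To compare shares of cells, each cell was thinned to 2000 UMIs, which left out 69 to 2143 shallower cells per library. The loss was uneven, with 1517 of 2562 cells kept in severe replicate 1 and 2040 of 2109 in sham replicate 2. The thinned shares are therefore shares of the kept cells only. A UMI of Folr2 was then found in 3.85% and 21.6% of sham cells, 46.1% and 55.6% of mild, 49.7% and 54.7% of moderate, and 31.4% and 40.7% of severe cells. In oligodendrocyte-gene cells without Tyrobp, which should lack the gene, the share was at most 4.62%, and median depth there was 6161 to 17567 UMIs before thinning. Oligodendrocyte-gene cells with a stray Tyrobp UMI are left out of this set, so its shares can understate the background of each gene. In sham replicate 1 itself the share in oligodendrocyte-gene cells was 0.769% (4 of 520 cells), below the 3.85% of its Tyrobp-positive cells.

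The remaining genes were found in fewer cells. Arg1 was found in 1.30% and 0.196% of sham cells and in 4.86% to 19.5% of injured cells, highest in moderate replicate 2. Its sham shares lay within the 95% intervals of the oligodendrocyte-gene share of the same library. These were 0.300% to 1.96% in replicate 1 and 0% to 8.97% in replicate 2. The latter, from 39 such cells, is too wide to tell a low share from background. Without the cells rich in S100a8 and S100a9 the Arg1 share of sham replicate 1 was 4.26%, above its interval. Cd86 was found in 1.92% and 10.9% of sham cells, 7.30% to 10.7% of mild and moderate cells, and 12.1% and 18.6% of severe cells. The highest oligodendrocyte-gene share was 1.28% for Arg1 and 0.389% for Cd86. Mrc1 was found in 1.69% to 17.2% of cells and Msr1 in 4.80% to 19.0%, against at most 1.92% and 1.54% in oligodendrocyte-gene cells. Cd163 was found in 0.436% to 1.03% of cells and Il10 in at most 0.662%, and no oligodendrocyte-gene cell held either. In severe replicate 1 Il10 was found in 0 of 1517 cells, which allows up to 0.198% of cells with a UMI at this depth, and at 4000 UMIs per cell it was found in 0.304% of 1315 cells. Before thinning, a UMI was found in 57.9% (Folr2), 30.9% (Msr1), 29.4% (Cd86), 22.7% (Mrc1), 15.6% (Arg1), 1.50% (Cd163) and 0.552% (Il10) of all Tyrobp-positive cells. Intervals and limits cover counting error only.

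**Figure D2:**
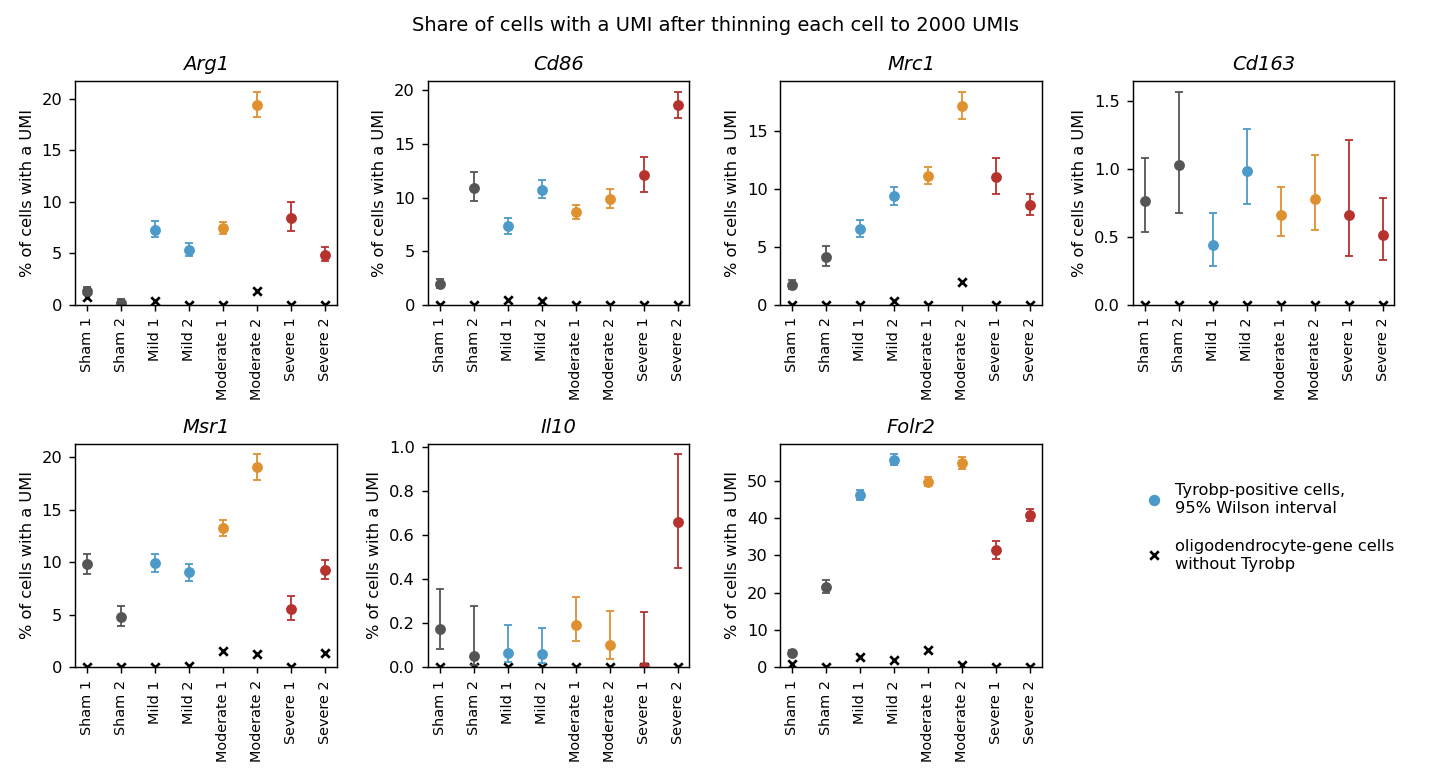
Each panel plots the percentage of Tyrobp-positive cells with a UMI of 1 gene after thinning to 2000 UMIs (points, with 95% Wilson intervals that cover counting error) and the same percentage in oligodendrocyte-gene cells without Tyrobp (crosses), by library. Folr2 is found in 31.4% to 55.6% of injured cells, and Cd163 and Il10 stay at or below 1.03% and 0.662%.

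Cells that held Cd86 together with at least 1 of the 6 other genes made up 4.40% to 8.86% of the thinned cells of an injured library. After thinning, between 40.4% and 66.2% of the Cd86-detecting cells of an injured library also held at least 1 of the 6 other genes, and so did 43.0% to 74.0% of its cells without Cd86. Between 23.4% and 50.2% of injured cells held none of the 7 genes and 33.6% to 47.0% held exactly 1. For each pair of genes the number of cells with both was set against the number expected from the product of the 2 shares in the same library. Over 26720 thinned cells of the 6 injured libraries, Cd86 and Folr2 met in 1297 cells against 1354 expected (ratio 0.96). Cd86 and Mrc1 met in 259 cells (ratio 0.87, with 2 of 6 libraries above 1), and Cd86 and Msr1 in 308 (ratio 0.96).

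Among the 21 pairs, Arg1 and Cd86 were at 2000 UMIs the 1 pair that met less often than expected in all 6 injured libraries. They met in 124 cells against 230 expected, a ratio of 0.54, with 0.42 to 0.78 in single libraries. The summed ratio was 0.52 at 1000 UMIs, 0.53 at 4000 UMIs, 0.54 with C1q UMIs and 0.50 without S100a8 and S100a9 cells. At 1000 UMIs and with C1q UMIs 1 of 6 libraries was above 1. Cd86 with Msr1 was also below 1 in all 6 libraries at 4000 UMIs (0.93) and without S100a8 and S100a9 cells (0.86). With C1q UMIs Cd86 with Mrc1 was below 1 in all 6 libraries (0.80). Arg1 with Cd86 was at 0.46 also among cells with Lyve1, Pf4 or F13a1 transcripts. It was at 0.95 among cells with Fn1 or Vcan transcripts. Both groups are defined below. Arg1 and Msr1 met more often than expected, in 485 cells against 305 (ratio 1.59, range 1.38 to 2.54). Their ratio was 1.32 among the cells with Lyve1, Pf4 or F13a1 transcripts, with 4 of 6 libraries above 1. Among the cells with Fn1 or Vcan transcripts it was 1.43, with 5 of 6 above 1. Arg1 and Mrc1 met at a ratio of 1.00.

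Mrc1 and Cd163 were the most closely joined pair among those with at least 10 expected cells. They met in 104 cells against 19.7 expected, a ratio of 5.28, and the 6 libraries ranged from 3.19 to 7.55. In the sham libraries the ratio was 18.5 in replicate 2 and, without its S100a8 and S100a9 cells, 13.8 in replicate 1, from 16 and 21 cells with both. Among injured cells with Lyve1, Pf4 or F13a1 transcripts the ratio of Mrc1 and Cd163 was 3.59, from 2.77 to 4.82 in single libraries. Folr2 met Mrc1 in 1912 cells against 1388 expected (ratio 1.38) and Cd163 in 133 against 90.1 (ratio 1.48), above 1 in 6 of 6 injured libraries for both. Pairs with Il10 rested on 28 or fewer cells. These ratios carry no test, because cells of 1 library are not replicates.

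**Figure D3:**
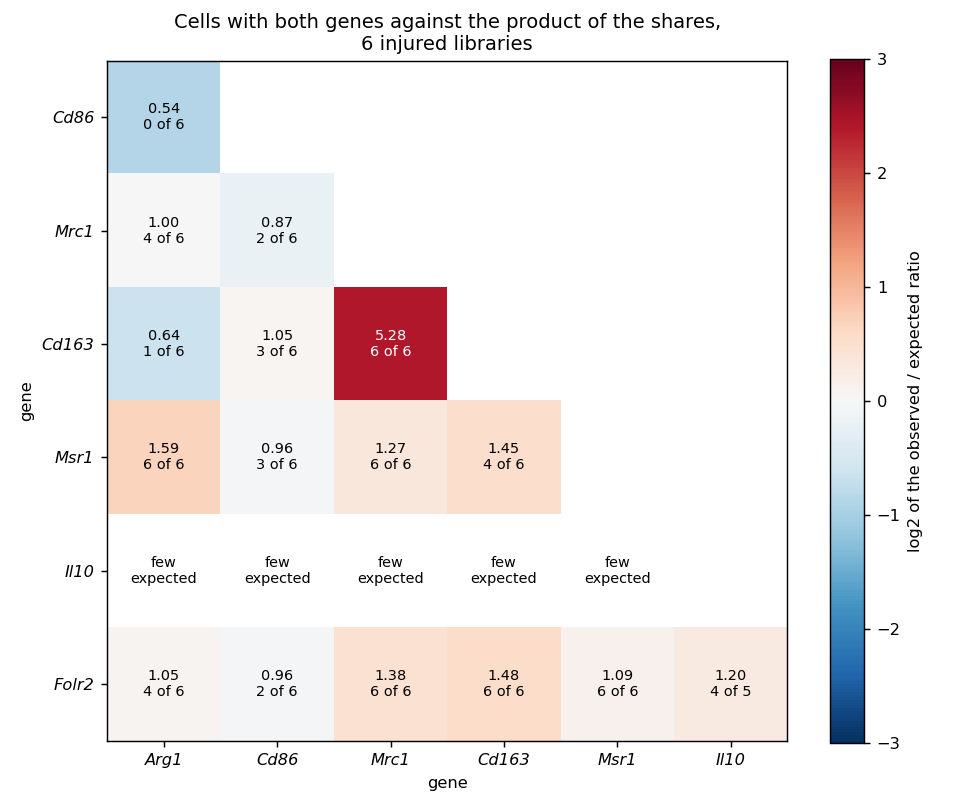
The grid gives for each pair of genes the number of thinned cells with both, summed over the 6 injured libraries, divided by the number expected from the shares within each library, on a log2 colour scale. The number of libraries with a ratio above 1 stands below each ratio, and pairs with under 10 expected cells have no colour. Mrc1 with Cd163 stands out at 5.28 and Arg1 with Cd86 at 0.54.

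Tyrobp-positive cells without the S100a8 and S100a9 excess were divided by the summed UMIs of genes outside the list. The lists, which needed at least 2 UMIs and more than the other lists, were microglia genes (P2ry12, Tmem119, Gpr34 and Sall1), border genes (Lyve1, Pf4 and F13a1, known from macrophages of meninges and vessels) and infiltrate genes (Fn1 and Vcan, known from monocyte-derived cells). They held 4719, 12264 and 7196 cells. Microglia-gene cells made up 75.2% of the Tyrobp-positive cells of sham replicate 2, 1.82% of sham replicate 1 and 2.69% to 13.9% of the injured libraries. Border-gene cells made up 7.67% and 12.2% in sham and 18.8% to 48.7% after injury, so the groups are named by their genes and not by an anatomical place. Summed levels over all Tyrobp-positive cells mix these shares with the level within each kind of cell, and the shares' part in the differences above was not tested.

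In a fit over the libraries, with the library as a block, Arg1, Mrc1, Folr2 and Msr1 were higher and Cd86 was lower in border-gene than in microglia-gene cells. In all 39.1% of 10467 genes were called, 20.3% higher and 18.8% lower. Cd163 was at 5.29 to 70.4 CPM in border-gene cells, and 7 UMIs were found in all 4719 microglia-gene cells (0 in 5 of 8 libraries), so that no fold is given. Arg1 was 4.45 ± 0.27 (SE, adjusted p = 6.07e-07) and Mrc1 3.30 ± 0.28 higher on the log2 scale. Folr2 was 1.20 ± 0.10 and Msr1 0.69 ± 0.14 higher on the log2 scale. In sham replicate 1, however, Msr1 was at 458 CPM in border-gene and 464 CPM in microglia-gene cells. Cd86 was lower, at -0.80 ± 0.13 (adjusted p = 0.000521).

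Infiltrate-gene cells were compared with microglia-gene cells in 7 libraries, since sham replicate 2 held only 8 of them. Arg1 was 5.90 ± 0.36 higher (SE, adjusted p = 8.09e-07), at 80.8 to 318 CPM against 0 to 10.5 CPM. Cd86 was lower by -2.15 ± 0.15 (adjusted p = 1.73e-06), at 18.2 to 44.1 CPM against 71.7 to 231 CPM. The 2 kinds of cells did not overlap in either gene. Mrc1 was 1.26 ± 0.28 and Msr1 0.57 ± 0.20 higher, whereas Folr2 differed by 0.14 ± 0.16 (adjusted p = 0.511). In total 3 of the 5 tested genes were higher and 1 lower, where 22.8% and 23.1% (45.9% in all) of 10420 genes were. Msr1 lost its call (adjusted p up to 0.101) without any 1 of 5 injured libraries, both moderate and both severe replicates and mild replicate 1.

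**Figure D4:**
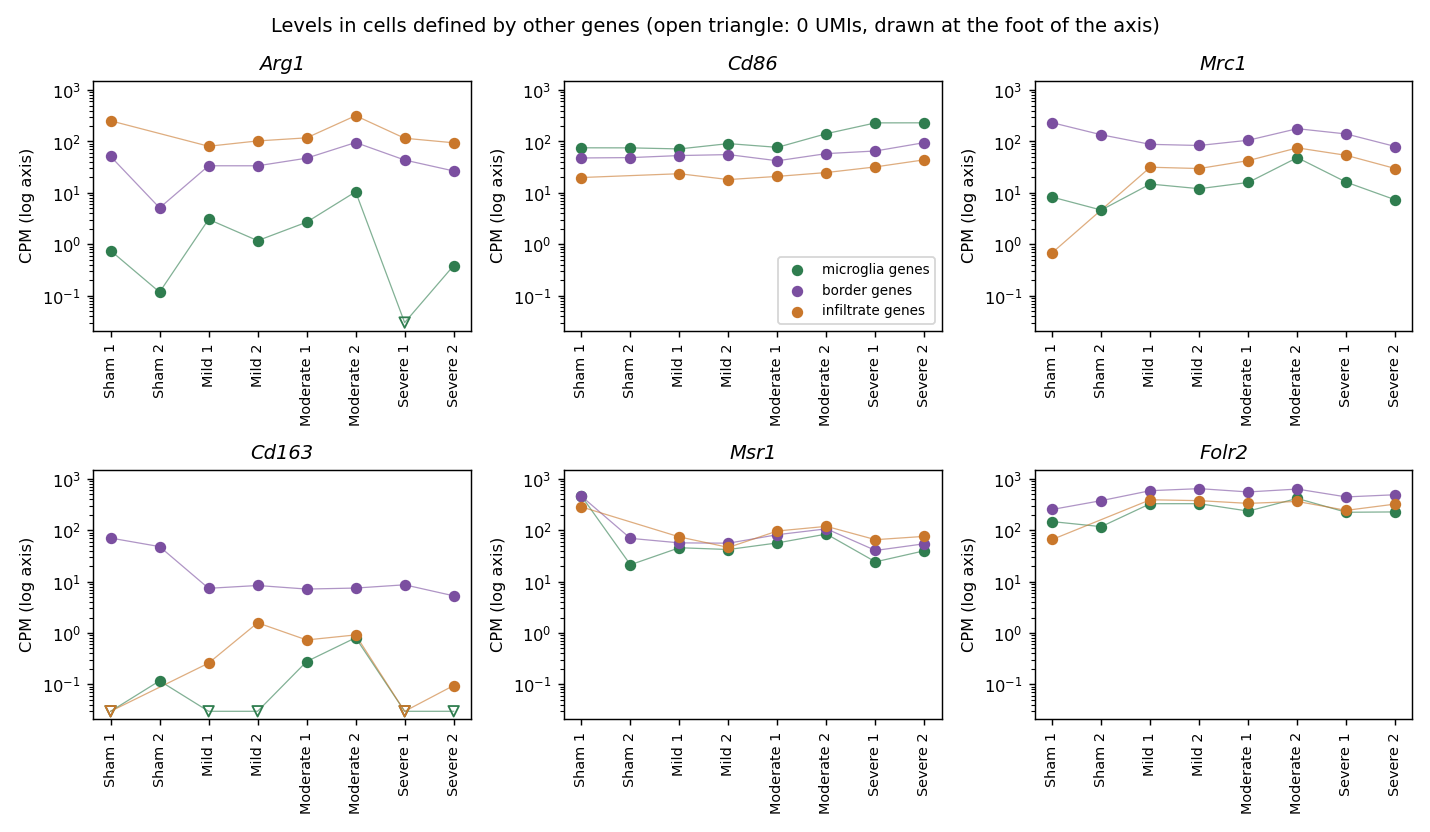
Levels of 6 listed genes in microglia-gene, border-gene and infiltrate-gene cells are plotted by library in CPM on a log axis, with open triangles for 0 UMIs and without groups of under 20 cells. Arg1 is lowest and Cd86 highest in microglia-gene cells of each injured library, and Cd163 is highest in border-gene cells.

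Injury groups were then compared within each kind of cell, a comparison added after the data had been seen. In microglia-gene cells Cd86 rose after severe injury. It was at 75.4 and 75.2 CPM in the sham replicates, 71.7 and 91.0 CPM (mild), 76.9 and 142 CPM (moderate), and 230 and 231 CPM (severe). Both severe libraries lay above the other 6. The log2 fold change was 1.90 ± 0.35 (SE) against sham (adjusted p = 0.0307) and 1.87 ± 0.35 against mild injury (adjusted p = 0.0227). Of 10841 genes 0.397%, 0.24% and 1.12% were called for mild, moderate and severe injury against sham, and 2.93% for severe against mild. In edgeR Cd86 was the 1 listed gene of the 5 tested that passed, and none passed for mild or moderate injury. DESeq2, with 4.11%, 2.44%, 2.84% and 5.31% of the genes called, also called Folr2 against sham in all 3 injury groups (adjusted p = 0.0129, 0.0182 and 0.0498) and Mrc1 after moderate injury (adjusted p = 0.00753). Leaving out either severe or either mild replicate ended the calls (adjusted p = 0.0605 to 0.239 against sham and 0.0963 to 0.22 against mild injury), at log2 fold changes of 1.69 to 2.05. Severe replicate 1 had 69 such cells and sham replicate 1 had 102.

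Folr2 in microglia-gene cells was at 147 and 117 CPM in sham and at 223 to 415 CPM in all 6 injured libraries, without overlap. Its log2 fold changes of 1.26 ± 0.32, 1.22 ± 0.32 and 1.09 ± 0.32 (SE) had adjusted p-values of 0.0779, 0.137 and 0.161. Mrc1 was at 8.29 and 4.64 CPM in sham and 7.33 to 48.5 CPM after injury, with adjusted p-values of 0.106 to 0.366. The change of Mrc1 in border-gene cells minus that in microglia-gene cells was -2.07 (mild) and -2.38 (moderate) on the log2 scale, where 0.797% and 0.164% of 12164 genes differed. What part the make-up of either kind of cell has in this difference was not tested. Msr1 in microglia-gene cells was at 464 CPM in sham replicate 1 and at 21.3 to 84.2 CPM in the other 7 libraries.

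In border-gene cells Cd163 was lower by a like size in all 3 injury groups. With all libraries in the fit the mild and severe differences were called and the moderate one missed the threshold. Cd163 was at 70.4 and 48.0 CPM in the sham replicates, 7.40 and 8.40 CPM (mild), 7.16 and 7.49 CPM (moderate), and 8.66 and 5.29 CPM (severe). The injured libraries lay close together and far below both sham libraries. The log2 fold change was -2.81 ± 0.28 (SE, adjusted p = 0.0294) for mild, -2.93 ± 0.28 (adjusted p = 0.0575) for moderate and -2.63 ± 0.28 (adjusted p = 0.0059) for severe injury. Of 12361 genes 0.485%, 0% and 3.78% were called against sham, and in edgeR Cd163 was the 1 listed gene of the 7 tested that passed. For severe against mild injury 3.66% of the genes and no listed gene were called. DESeq2 called 11.4%, 6.53%, 14.4% and 10.4% of the genes in the 4 comparisons, and called Cd163 against sham in all 3 injury groups. It also called Folr2 higher and Msr1 lower after mild and severe injury, with Msr1 at 458 CPM in sham replicate 1 and 69.4 CPM in sham replicate 2, Mrc1 lower after mild injury, Cd86 higher after severe injury, and Cd86 and Il10 higher for severe against mild injury. The mild call was lost without any 1 of the 6 injured libraries (adjusted p = 0.103 to 0.291), and the severe call without severe replicate 2 (0.0687). The values stayed between -2.99 and -2.30 in all 24 of these fits. Among them the moderate difference was -2.79 without sham replicate 1 and -2.99 without sham replicate 2. Border-gene cells were 258 and 431 per sham library and 624 to 3564 per injured library. Their Lyve1 level was 333 and 357 CPM in sham and 104 to 259 CPM after injury. The sham sets were unlike in other genes. Pf4 was at 3750 CPM in sham replicate 1 and 615 CPM in sham replicate 2, and S100a9 at 1861 and 0.959 CPM. What part the make-up of these cells has in the Cd163 difference was not tested.

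The lower Cd163 level was also seen where each cell had at least 2 UMIs of Lyve1, a hyaluronan receptor of border macrophages. In these 124 to 1027 cells per library Cd163 was at 141 and 107 CPM in sham and at 12.9 to 30.0 CPM after injury. Mrc1 was at 425 and 247 CPM in the same sham cells and at 92.7 to 234 CPM after injury, and Lyve1 itself at 748 and 782 CPM against 393 to 537 CPM. Folr2 was at 464 and 412 CPM in sham and 427 to 593 CPM after injury, which overlap. This set was chosen after the values had been seen and has no test.

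The listed genes were also described by the genes most like them, as the mean over 8 libraries of Pearson's r between log-scaled cell levels. Mrc1 and Cd163 shared their 2 nearest genes, the lectin Clec10a (r = 0.52 and 0.43) and Lyve1 (0.45 and 0.40). Arg1 was nearest to Fn1 (0.42), RGD1559482 (0.40) and the transglutaminase Tgm2 (0.38). Cd86 was nearest to Tmem176a (0.36), Cst3 (0.35) and Tmem176b (0.34), and Folr2 to the lysosomal genes Cd68 (0.57) and Lgmn (0.56) and to Apoe (0.55). Msr1 was nearest to S100a4 (0.32), and the highest r for Il10 was 0.077, too weak to name a likeness. These values share each cell's depth and carry no test.

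Other genes of the same pathways, in 7 lists, gave no call in Tyrobp-positive cells. Of 17 tested pro-inflammatory genes 0 were called by edgeR in any of the 4 comparisons. For severe against mild injury 10 of them were at an unadjusted p under 0.05, as were 2229 of all 14534 tested genes. DESeq2 called 8 of the 17 there and 6.08% of all genes. Against sham 9 (mild), 7 (moderate) and 4 (severe) of the 17 were at an unadjusted p under 0.05. Of all 14534 tested genes 3507, 2510 and 3172 were. DESeq2 called 7, 6 and 3 of the 17 against sham, and 13.7%, 7.82% and 11.1% of all genes. The median log2 fold change of the 17 was -1.80 (mild), -0.94 (moderate) and 0.76 (severe) against sham and 2.02 for severe against mild. The median of all genes was -0.17, -0.11, -0.25 and -0.04. Il1b, the inflammasome cytokine, was at 232 and 200 CPM in the mild and 3586 and 3250 CPM in the severe replicates (log2 fold change 4.38 ± 0.73 SE, adjusted p = 0.0772), and at 946 and 288 CPM in the sham replicates. The genes listed for dendritic cells, named above, summed to 794 and 2250 CPM in the mild and 3851 and 2841 CPM in the severe replicates. Neutrophil genes summed to 173331 CPM in sham replicate 1. The part of these 2 sums in the medians of the pro-inflammatory list was not tested. Irf1, an interferon-response factor, was at 26.3 and 24.6 CPM against 108 and 76.8 CPM (2.25 ± 0.33, adjusted p = 0.0505). The 18 tested repair genes had medians of 0.20, 0.27, 0.57 and 0.14 in the 4 comparisons, with 0 called by edgeR. Between 2 and 4 of them were at an unadjusted p under 0.05, and DESeq2 called 1 to 3. Over all 14534 tested genes 2229 to 3507 were at an unadjusted p under 0.05, and DESeq2 called 6.08% to 13.7%.

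Among 13 tested arginine and polyamine genes other than Arg1 the medians were -0.07 to 0.42. The 9 genes of the interleukin 10 pathway, Il10 among them, had medians of -0.63 to 0.40, the 8 costimulation genes other than Cd86, which share Cd80 and Cd40 with the pro-inflammatory list, -0.91 to 1.55, and the 10 folate genes -0.58 to 0.79. The 10 scavenger receptor genes tested had medians of 0.97, 0.73 and 1.11 against sham. In that list Hmox1, the haem oxygenase that acts after haemoglobin uptake, was at 522 and 534 CPM in sham and 953 to 1744 CPM in all injured libraries (mild 1.32 ± 0.29 SE, adjusted p = 0.0924). Ggh, a folate hydrolase, was at 11.3 and 20.3 CPM in sham and 35.5 to 48.5 CPM after injury (severe 1.57 ± 0.30, adjusted p = 0.0762). In each of these 5 lists edgeR called 0 genes in any comparison. Between 0 and 5 were at an unadjusted p under 0.05, where 2229 to 3507 of all 14534 tested genes were. DESeq2 called 0 to 3 genes per list and 6.08% to 13.7% of all genes.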

How the data were processed

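Droplet-based 10x libraries of rat spinal cord, 2 per group, were counted by the authors with Cell Ranger on Rnor_6.0 (the version is 5.0.1 in the file headers and 6.0.1 in the study's methods), and the deposited values are raw UMI counts per gene and cell, without normalization. Samples were grouped by their labels. Cells with over 10% mitochondrial UMIs were removed, then the 7.7% with the highest Scrublet score (scanpy 1.11.5), then those outside mean ± 2 SD of UMIs or genes of their library. Total depth was 31482153 to 131045446 UMIs per library. UMIs of the chosen cells were summed per library and tested with edgeR 4.0.16 (filterByExpr, TMM, quasi-likelihood, all 4 groups in 1 fit, Benjamini-Hochberg adjustment over all genes, threshold 0.05). Kinds of cells were compared within libraries of at least 20 cells each, with the library as a block. The steps were tested on simulated counts without a library set apart like sham replicate 1. These had 1 spread for all genes, which was not estimated from these data. For severe against sham, 37.3% of 67 changes of 2-fold were recovered, and 67 of 67 of 4-fold, with 11 false calls. These rates do not carry over to the real libraries, where a 5.40-fold Arg1 difference (moderate against sham) was not called. Alternatives were DESeq2 1.42.0, no TMM, no filter, a replicate block, 2 groups only, each library left out, other Tyrobp limits (1 and 6), C1q and S100 limits, all barcodes, and thinning to 1000 or 4000 UMIs. Named genes are the listed ones, their 3 nearest genes and the genes of each list with the smallest adjusted p. The genes and lists were chosen with earlier results of these data known.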

Additional observations from a re-analysis of the deposited data

Results flagged for a closer look

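The change of Mrc1 with injury differed between border-gene and microglia-gene cells, in a model of both kinds of cells with the library as a block that was added after the data had been seen. The difference of the log2 changes (border minus microglia) was -2.07 ± 0.31 (SE, adjusted p = 0.0176 in edgeR) for mild against sham and -2.38 ± 0.30 (adjusted p = 0.0208) for moderate against sham, where 0.797% and 0.164% of 12164 genes were called. For severe against sham it was -1.34 ± 0.34 (adjusted p = 0.11). Mrc1 was at 232 and 135 CPM in the border-gene cells of the sham replicates and at 79.9 to 178 CPM after injury, and at 8.29 and 4.64 CPM in their microglia-gene cells and 7.33 to 48.5 CPM after injury. The sham sets were unlike in other genes. Pf4 was at 3750 and 615 CPM in their border-gene cells, and S100a9 at 1312 and 0.881 CPM in their microglia-gene cells. Sham replicate 1 had 102 microglia-gene cells. What part the make-up of these cells has in the Mrc1 difference was not tested. In border-gene cells alone the log2 fold changes were -0.99, -0.29 and -0.26, and in microglia-gene cells alone 1.12, 2.30 and 1.10, and none of these 6 was called by edgeR. Leaving out each library in turn kept the difference between -2.17 and -1.91 for mild injury, where it was not called without mild replicate 1 (adjusted p = 0.101), and between -2.84 and -1.95 for moderate injury, where every such fit called it. The severe difference was called without either moderate replicate (adjusted p = 0.034 and 0.0333).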

How the results depend on the processing

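Called genes under DESeq2 numbered 1994, 1137, 1613 and 883 in Tyrobp-positive cells for mild, moderate and severe against sham and severe against mild injury. In the same order, no filter on low counts gave 30, 16, 205 and 125. The limit on C1q UMIs gave 456, 105, 400 and 219. Without cells rich in S100a8 and S100a9, 6 genes were called for mild and 260 for severe against sham. At least 6 Tyrobp UMIs gave 153 for severe against sham. With only the groups compared, 0 were called for severe against sham and 658 for severe against mild. Leaving out 1 library, in 1 setting together with those S100 cells, gave 0 to 4348, 0 to 3096, 0 to 4257 and 0 to 1269, highest without sham replicate 2 in the comparisons with sham.

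In microglia-gene cells DESeq2 called 446, 265, 308 and 576 genes in that order, no filter gave 1052, 626, 649 and 988, and leaving out 1 library gave 0 to 949, 1 to 391, 0 to 724 and 37 to 946. In border-gene cells DESeq2 called 1409, 807, 1781 and 1284, no filter gave 2181, 1581, 2451 and 1779, and leaving out 1 library gave 0 to 2861, 0 to 1909, 0 to 3188 and 32 to 1871. No TMM gave 1195 for severe against sham and 1219 for severe against mild.

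Deviations from group means in same-numbered libraries correlated at -0.218 to 0.323. With 2 libraries per group this cannot decide whether same-numbered libraries were paired, and the main fits had no replicate block. With a replicate block, Tyrobp-positive cells gave 4 genes for severe against sham and 23 for severe against mild, microglia-gene cells 21 for mild, and border-gene cells 1, 231 and 233 for mild, severe and severe against mild. The block turned Cd86 to 0.17 (mild) and 0.18 (moderate).

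Among log2 fold changes in Tyrobp-positive cells, Cd86 turned positive against sham without TMM (0.17 mild, 0.21 moderate), without a filter (0.034 mild) and at 6 Tyrobp UMIs (0.080 mild, 0.069 moderate). Mrc1 (mild) was -0.42 with the C1q limit and -0.0034 without S100 cells, and Il10 (mild) was 0.78 with the C1q limit. For severe against mild, Arg1 was -0.35 with the C1q limit, Cd163 -0.15 and Msr1 -0.24 without TMM, and Folr2 0.044 over all barcodes and 0.10 with the C1q limit. Leaving out 1 library, Cd86 ranged from -0.67 to 1.40 (mild) and -0.70 to 1.36 (moderate). Msr1 ranged from -1.70 to 0.71, -1.01 to 1.40 and -1.53 to 0.90 (mild, moderate, severe), and Il10 from -1.45 to 0.83 (mild) and -0.25 to 2.04 (moderate). For severe against mild the ranges were -0.016 to 0.71 (Arg1), -0.16 to 0.78 (Cd163), -0.10 to 0.39 (Msr1) and -0.31 to 0.10 (Folr2). In microglia-gene cells Cd86 ranged from -0.14 to 0.29 (mild) and -0.023 to 0.82 (moderate), and in border-gene cells Cd86 from -0.057 to 0.33 and Mrc1 from -0.62 to 0.047 (moderate) and -0.55 to 0.091 (severe). The cause was not tested.

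The differences of Arg1, Mrc1, Folr2, Msr1 and Cd86 between border-gene and microglia-gene cells kept direction and call under all alternatives run. The mild Cd163 call in border-gene cells was lost with the block (-2.79, adjusted p = 0.0533). Of the fold changes of listed genes that were counted, 783 kept direction and call, 62 gained and 23 lost a call, and 44 turned. Those kept include values called in neither setting. Within microglia-gene cells only Cd86, Folr2 and Mrc1 were counted, and within border-gene cells these and Cd163. With 2 libraries per group, sham values rest on libraries that differ up to 33.2-fold (Arg1). At 4000 UMIs 102 of the group shares moved by more than 1 SD of 2 libraries and 10 did not, and at 1000 UMIs 73 and 39. A share rises with the UMIs kept per cell, and the set of cells kept changes too. In sham replicate 1 it was 5274, 4073 and 1533 cells at 1000, 2000 and 4000 UMIs. The part of each in these moves was not tested. The counts were 52 and 60 with the C1q limit, 27 and 85 without S100 cells, and 23 and 89 over all barcodes.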
